A study of Mus musculus with 12 samples.

Results

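The expression of 10 genes for ligands and costimulators, through which a tumour cell restrains or stimulates T cells and macrophages, was examined in Myc-CaP cells, a mouse prostate cancer line. The genes were taken by symbol: Cd274, Pdcd1lg2, Cd80, Cd86, Icosl, Cd276, Vtcn1, Cd47, Lgals9 and Icam1. They are 10 of the 55216 genes in the count table. The study asked how oxaliplatin (Oxali), which is a DNA-crosslinking platinum compound, and interferon gamma (IFNγ), a cytokine of activated T cells, alter gene expression alone and together. Poly(A) RNA of cells treated for 48 h was sequenced in 12 libraries, 2 in each of 6 groups: untreated cells (Ctrl), IFNγ at 200 pg (IFN200), IFNγ at 2000 pg (IFN2000), Oxali at 2 μM, and Oxali at 2 μM with either IFNγ amount (Combo200 and Combo2000). The labels give the amount of IFNγ without a volume, and the study's text gives a concentration per mL. Gene positions below are those of the GENCODE annotation of GRCm38. All groups are the same established line, from a male FVB/NJ mouse, and it was derived from a prostate tumour driven by a Myc transgene under a prostate-specific probasin promoter, so all 6 groups, Ctrl included, share that transgene. Nothing states that the libraries of a group came from separate cultures, so p-values measure only the spread between these samples, which may be technical.

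Sample titles define the groups used here. For the 3 single treatments the agent label disagrees with the title: libraries titled IFN200 carry the Oxali agent, those titled IFN2000 carry 200 pg of IFNγ, and those titled Oxali carry 2000 pg of IFNγ. If the agent labels were right, these 3 group names would exchange, while Ctrl and the combinations would keep theirs.

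Checkpoint ligands are surface or secreted proteins that a target cell shows to immune cells. PD-L1 (Cd274) and PD-L2 (Pdcd1lg2) bind PD-1 on T cells and restrain them. CD80 and CD86 give the costimulatory signal through CD28 or a restraining one through CTLA-4, and the ICOS ligand (Icosl) costimulates through ICOS. B7-H3 (Cd276) and B7-H4 (Vtcn1) are further members of the B7 family. CD47 tells macrophages, through SIRPα, not to engulf the cell; galectin-9 (Lgals9) binds TIM-3 (Havcr2) among other glycoproteins; and ICAM-1 holds T cells to the target through the integrin LFA-1. IFNγ acts through its receptor and the kinases JAK1 and JAK2 and induces IRF1, and Cd274 is a textbook target of this route. NF-κB is a known inducer of Icam1.

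The promoters of the 3 members with a searched motif are shown. These members differed between groups in the tests below, but so did Vtcn1 and Cd47, whose windows held none of the motifs. A link between motif and change was not tested. The bases lie directly upstream of the RefSeq start in GRCm38.p6, 5′ to 3′ on the gene's strand, with motifs in capitals; the reference is C57BL/6J, not FVB/NJ. For Lgals9 the run stops where another annotated transcript begins.
Cd274, chr19:29367188-29367437, plus strand: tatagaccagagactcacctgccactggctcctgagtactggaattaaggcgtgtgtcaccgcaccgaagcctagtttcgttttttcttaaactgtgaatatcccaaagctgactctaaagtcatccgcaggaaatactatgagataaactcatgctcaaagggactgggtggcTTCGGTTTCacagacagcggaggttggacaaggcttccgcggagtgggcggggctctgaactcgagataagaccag
Icam1, chr9:21015690-21015939, plus strand: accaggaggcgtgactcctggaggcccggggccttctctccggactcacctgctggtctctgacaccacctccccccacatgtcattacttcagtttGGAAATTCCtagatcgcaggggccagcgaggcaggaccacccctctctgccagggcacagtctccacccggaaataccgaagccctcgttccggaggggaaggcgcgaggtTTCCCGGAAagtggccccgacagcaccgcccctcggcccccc
Lgals9, chr11:78984947-78985174, minus strand: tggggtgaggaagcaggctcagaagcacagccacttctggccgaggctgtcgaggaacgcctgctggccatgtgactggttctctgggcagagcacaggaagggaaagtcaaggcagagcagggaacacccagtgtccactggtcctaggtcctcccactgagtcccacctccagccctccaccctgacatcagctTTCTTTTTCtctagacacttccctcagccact

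Both strands of the 300 bases from 250 before to 50 after each RefSeq start were searched for 3 motifs: TTCNNNGAA (the GAS element), GAAANNGAA (an IRF element) and GGANNTTCC (a core of κB sites). A window was matched for 9 of the 10 members, 10 windows in all. Cd274 held an IRF element on the minus strand from -76 to -68 relative to the start. Icam1 held a κB core from -153 to -145 and a GAS element from -42 to -34. Lgals9 held IRF elements from -54 to -46 and from 17 to 25, the second of which lies outside the printed bases. Of all 32851 promoter windows, 8.3% held the GAS element, 8.56% the IRF element and 4.26% the κB core, so each is common, and a match describes letters and not a bound site.

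Libraries held 18749975 to 25931516 counts. Levels are given as CPM, counts relative to library size after TMM scaling, which adjusts for composition. A count of 3, taken as the floor of detection, corresponds to 0.111 to 0.167 CPM, and floors and count intervals cover counting error only. Of the prostate epithelium markers Krt8 and Hoxb13 were detected in every library, whereas Epcam was at 0 in all 12, Krt18 reached at most 5 counts and Cdh1 at most 6. IFN2000 replicate 2 stood apart: its 12 T cell markers summed to 421 counts, against 12 to 80 in the other 11 libraries, with 11 of the 12 above the floor, Ifng at 117, Thy1 at 70 and Ptprc at 64, and Cd8a at 0. IFN200 replicate 1 held 202 counts of 8 heart muscle markers, with Actc1 at 63 and Myh7 at 58. In the 6 libraries with Oxali, T cell markers summed to 43 to 80 counts and heart muscle markers to 82 to 136, against 12 to 28 and 15 to 26 in the libraries without Oxali, leaving out IFN2000 replicate 2 for the former and IFN200 replicate 1 for the latter. Of the 12 T cell markers 2 to 4 were above the floor in those 6 libraries, with Cd3d and Cd8a at 0, and Tnnt2 made most of the heart muscle sum. The 10 macrophage markers summed to 356 to 456 counts in the libraries with Oxali and to 235 to 304 in those without, except IFN2000 replicate 2 with 430, most of it Cd14, and Adgre1, C1qa and Itgam were at 0 in all 12. The 8 dendritic and B cell markers summed to 9 to 20 counts in every library. The part of these reads in the results was not tested, and results that rest on IFN2000 replicate 2 are given with and without it.

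Genes were tested with edgeR's quasi-likelihood test across all 12 libraries and called when the p adjusted by Benjamini-Hochberg over 13177 genes was under 0.05. Of the 10 members, 6 passed the filter on low counts (Cd274, Icosl, Vtcn1, Cd47, Lgals9 and Icam1) and 4 did not (Pdcd1lg2, Cd80, Cd86 and Cd276). Every member change that was called was an increase. The comparisons share their control libraries, so calls in several of them are not independent. Where all libraries of some groups are said to lie above those of others, the share of all tested genes that do so was not computed. Of all tested genes 67.6% were called in either direction in Oxali against Ctrl.

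Cd274 was lowest without Oxali and highest in the combinations. The Ctrl libraries gave 33 and 28 counts, those of IFN200 34 and 31, and those of IFN2000 77 and 42. With Oxali the counts were 79 and 80, rising to 188 and 216 for Combo200 and to 621 and 518 for Combo2000. In CPM the groups ran from 1.42 ± 0.0749 (SD, n = 2) in IFN200 and 1.63 ± 0.295 in Ctrl through 2.58 ± 1.005 in IFN2000, 3.73 ± 0.126 in Oxali, 8.27 ± 0.105 in Combo200 and up to 22.7 ± 0.478 in Combo2000; only Ctrl and IFN200 overlapped among neighbours. Oxali raised Cd274 by 1.20 on the log2 scale (SE 0.228, edgeR adjusted p = 1.08e-04), Combo200 by 2.35 (SE 0.189, adjusted p = 1.16e-09) and Combo2000 by 3.80 (SE 0.157, adjusted p = 4.45e-14), a fold of 14.0. IFN200 gave a log2 difference of -0.18 (SE 0.278, edgeR adjusted p = 0.942), with a 95% interval from -0.77 to 0.40.

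IFN2000 gave a log2 difference of 0.68 for Cd274 (SE 0.243, edgeR adjusted p = 0.0603), which did not pass. The higher of its libraries, with 77 counts, was the one with the T cell reads. Without that library the difference was 0.22 (SE 0.261, edgeR adjusted p = 0.749), and without the other one, replicate 3, it was 1.04 (adjusted p = 0.00164). IFN2000 exceeded IFN200 by 0.87 (SE 0.238, edgeR adjusted p = 0.0135), a call lost without IFN2000 replicate 2 (0.40, adjusted p = 0.431) and without either IFN200 library. The rises under Oxali alone and in the combinations do not use this library in their group means.

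In cells that received Oxali, IFNγ raised Cd274 at either amount. Combo200 exceeded Oxali by 1.15 (SE 0.151, edgeR adjusted p = 5.42e-05), Combo2000 exceeded Oxali by 2.60 (SE 0.127, adjusted p = 5.47e-12), and Combo2000 exceeded Combo200 by 1.45 (SE 0.106, adjusted p = 1.24e-08). All 3 calls held under all 20 alternative settings tried, as did those of Oxali and both combinations against Ctrl. Cd274 lies on chromosome 19 from 29367455 to 29388095 (GRCm38, plus strand), where AC119228.1 overlaps it on the other strand. Whether counting used strand is not stated, so reads of these genes cannot be told apart.

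Pdcd1lg2 lies 22823 bases downstream of Cd274 on the same strand, and its level was at the floor. It had 1 count in IFN2000 replicate 2, 1 in Oxali replicate 1 and 0 in the other libraries. A change was not detectable at this depth. A930007I19Rik overlaps Pdcd1lg2 on the other strand. The plot of levels by library shows the 6 tested members side by side.

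**Figure D1:**
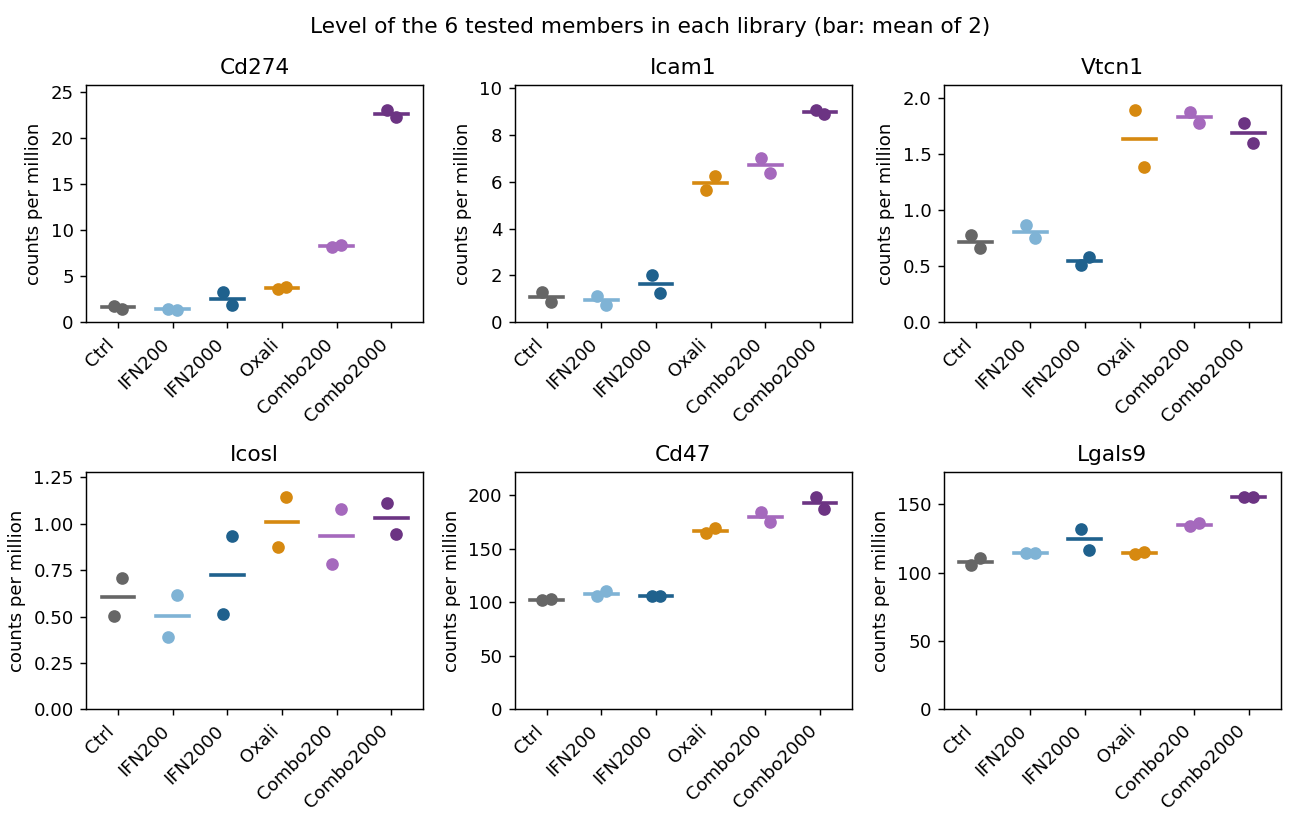
Level of each of the 6 tested members (CPM, axes from 0) in the 6 groups; points are libraries and bars are means of 2. Cd274 was highest in Combo2000 (22.3 and 22.99 CPM). Cd274, Icam1, Vtcn1 and Cd47 were higher in all 6 libraries with Oxali than in all 6 without. Lgals9 stood at 155 CPM in both Combo2000 libraries.

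Among the B7 family costimulators, Cd80 and Cd86 were near or at the floor. Cd80 gave 2 and 2 counts for Ctrl, 0 and 2 for IFN200 and 1 and 3 for IFN2000. With Oxali it gave 8 and 5, with 5 and 7 for Combo200 and the same for Combo2000. The 6 libraries with Oxali did not overlap the 6 without. Summed over them, 37 counts against 10 gave a ratio of 3.37 after scaling (95% interval 1.64 to 7.61, counting error only). The single step from Ctrl to Oxali gave 2.87 (interval 0.887 to 12.1), which includes no change, and with no filter on low counts its log2 difference was 1.46 (SE 0.848, edgeR adjusted p = 0.218). Combo200 over IFN200 gave 5.61 (interval 1.25 to 51.7), from 12 counts against 2. With no filter its log2 difference was 2.34 (SE 0.978, edgeR adjusted p = 0.0482), which passed. It was the only comparison of Cd80 to pass with no filter, and both IFN200 libraries were under the floor. Combo2000 over IFN2000 gave 2.73 (interval 0.829 to 11.6), and with no filter a log2 difference of 1.40 (SE 0.854, edgeR adjusted p = 0.237). Cd80 (38455561 to 38496335, plus strand) and Cd86 (36603869 to 36666081, minus strand) both lie on chromosome 16. Cd86 had 1 count in Combo200 replicate 3 and 0 elsewhere.

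Icosl (chromosome 10, 78069302 to 78083913, plus strand), the ICOS ligand, was low and did not pass against Ctrl in any group. Ctrl and IFN200 gave 9 and 14 counts each, and IFN2000 gave 12 and 21. The counts were 19 and 24 with Oxali, 18 and 28 for Combo200 and 30 and 22 for Combo2000. Both libraries of each Oxali group were above both Ctrl libraries. The log2 difference was 0.72 in Oxali (SE 0.383, edgeR adjusted p = 0.104, 95% interval -0.08 to 1.52) and 0.76 in Combo2000 (adjusted p = 0.0764). The only call was Combo200 against IFN200 (0.89, SE 0.377, edgeR adjusted p = 0.0414), and it passed in 8 of 19 alternatives, being lost among others under DESeq2 (adjusted p = 0.145) and without IFN200 replicate 1, the library with heart muscle reads (0.59, adjusted p = 0.289).

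Vtcn1 (chromosome 3, 100825459 to 100896922, plus strand), encoding B7-H4, rose with Oxali, while neither amount of IFNγ alone gave a call. Its counts were 14 and 13 for Ctrl, 20 and 17 for IFN200 and 12 and 13 for IFN2000. With Oxali they were 41 and 29, with 43 and 46 for Combo200 and 48 and 37 for Combo2000. The libraries with and without Oxali did not overlap in CPM. Oxali raised it by 1.19 (SE 0.292, edgeR adjusted p = 0.00132), Combo200 by 1.34 (SE 0.280, adjusted p = 2.84e-04) and Combo2000 by 1.23 (SE 0.283, adjusted p = 6.96e-04). Adding IFNγ to Oxali changed it by 0.15 at 200 pg (95% interval -0.32 to 0.63) and 0.04 at 2000 pg (-0.44 to 0.53), neither called. Cd276 (chromosome 9, 58524298 to 58555437, minus strand), encoding B7-H3, had 0 counts in all 12 libraries. By counting error alone this allows up to 0.167 CPM in the shallowest. Gm10657 overlaps Cd276 on the other strand.

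Cd47 (chromosome 16, 49800533 to 49915010, plus strand), the signal that restrains macrophages, was among the abundant members. Ctrl stood at 102 and 103 CPM, IFN200 at 106 and 111, and IFN2000 at 106 and 106. Oxali stood at 165 and 169 CPM, Combo200 at 184 and 175, and Combo2000 at 198 and 187. All libraries with Oxali lay above all without. The rise was 0.70 in Oxali (SE 0.0440, edgeR adjusted p = 3.02e-11), 0.81 in Combo200 (SE 0.0437, adjusted p = 2.85e-12) and 0.91 in Combo2000 (SE 0.0435, adjusted p = 4.21e-13). IFNγ alone gave 0.08 at 200 pg and 0.04 at 2000 pg, neither called. Combo2000 exceeded Oxali by 0.21 (SE 0.0417, edgeR adjusted p = 0.00402), which was lost without Oxali replicate 1 (0.19, adjusted p = 0.0700) and without Combo2000 replicate 2 (0.16, adjusted p = 0.111).

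Lgals9 (chromosome 11, 78962974 to 78984946, minus strand), encoding galectin-9, rose with IFNγ on top of Oxali, while the step from Ctrl to Oxali did not pass. Ctrl measured 106 and 110 CPM, IFN200 115 and 114, and IFN2000 132 and 116. Oxali measured 114 and 115 CPM, Combo200 134 and 136, and Combo2000 155 and 155. The difference of Oxali from Ctrl was 0.09 (SE 0.0502, edgeR adjusted p = 0.139); it passed under upper-quartile scaling (0.14, adjusted p = 0.0240) and with a length and GC correction (0.14, adjusted p = 0.00662). Combo200 exceeded Ctrl by 0.32 (SE 0.0493, adjusted p = 8.71e-06) and Combo2000 by 0.52 (SE 0.0490, edgeR adjusted p = 1.07e-08). Combo2000 exceeded Oxali by 0.44 (SE 0.0483, adjusted p = 2.56e-06), a call held under all 20 alternatives. Combo200 exceeded Oxali by 0.24 (SE 0.0487, edgeR adjusted p = 0.00915), a call lost when any 1 of those 4 libraries was left out (adjusted p 0.0740 to 0.214) and under the replicate block (adjusted p = 0.0516). Combo2000 exceeded Combo200 by 0.20 (SE 0.0474, edgeR adjusted p = 0.0364), which passed under 8 of 20 alternatives.

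In IFN2000 Lgals9 was the only member called against Ctrl (0.20, SE 0.0497, edgeR adjusted p = 0.00842). Without IFN2000 replicate 2, the library with T cell reads and the higher of the pair, it was 0.11 (SE 0.0475, edgeR adjusted p = 0.178), and without Ctrl replicate 1 it was 0.18 (adjusted p = 0.126).

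Icam1 (chromosome 9, 21015985 to 21028817, plus strand), the adhesion ligand, rose most with Oxali alone among the members. Ctrl gave 23 and 17 counts, IFN200 gave 26 and 17, and IFN2000 gave 47 and 28. Oxali gave 123 and 131, Combo200 gave 161 and 165, and Combo2000 gave 244 and 206. Every library with Oxali exceeded every library without it. The rise was 2.48 in Oxali (SE 0.224, edgeR adjusted p = 7.07e-09), 2.65 in Combo200 (SE 0.216, adjusted p = 1.40e-09) and 3.07 in Combo2000 (SE 0.203, adjusted p = 6.17e-11), or 5.59-fold, 6.27-fold and 8.41-fold. IFN2000 gave 0.62 (SE 0.292, edgeR adjusted p = 0.159), and 0.24 (adjusted p = 0.780) without the library with T cell reads, which again was the higher. Combo2000 exceeded Oxali by 0.59 (SE 0.136, edgeR adjusted p = 0.0128), but the call was lost under DESeq2 (adjusted p = 0.157) and when any 1 of the 4 libraries was left out (adjusted p 0.0613 to 0.161). Gm47079 overlaps Icam1 on the other strand.

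**Figure D2:**
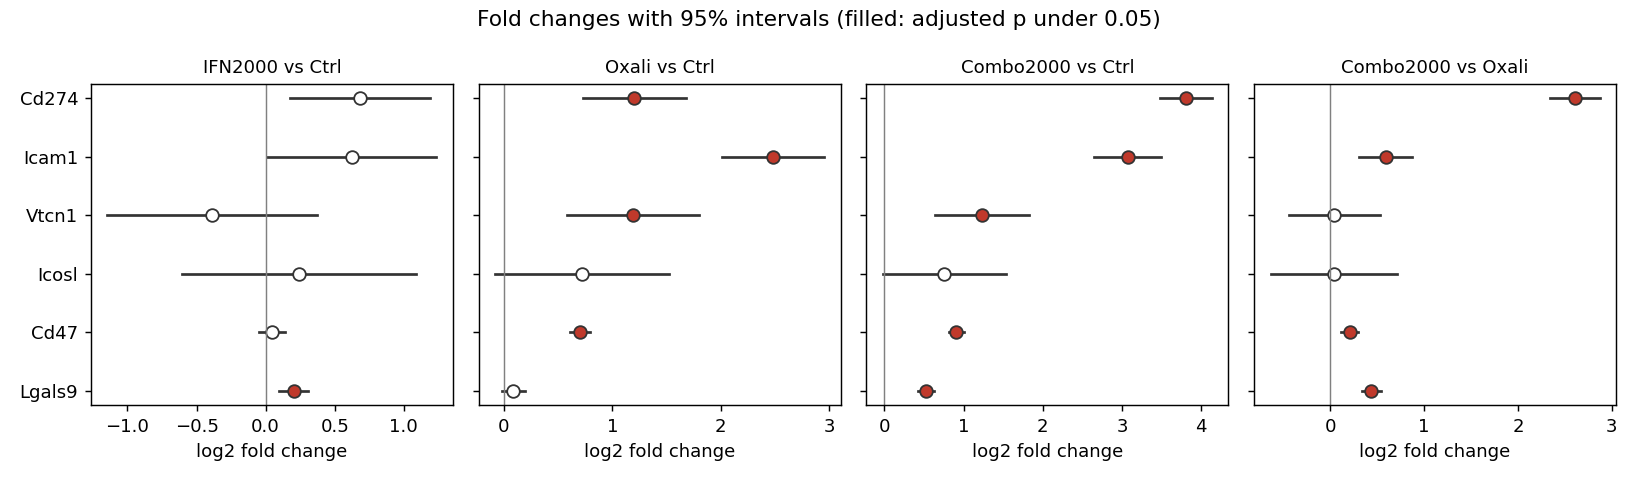
Log2 fold changes of the 6 tested members in 4 comparisons, with 95% intervals as lines and filled points where the adjusted p was under 0.05. Oxali raised Cd274, Icam1, Vtcn1 and Cd47, and Combo2000 exceeded Oxali for Cd274 (2.60), Icam1 (0.59), Lgals9 (0.44) and Cd47 (0.21).

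Per kilobase of exon, the members ranked in Ctrl as Lgals9 (50.5 CPM per kb), Cd47 (16.3), Cd274 (0.449), Vtcn1 (0.274), Icam1 (0.245), Icosl (0.131) and Cd80 (0.0287), where the libraries of Vtcn1 and Icam1 overlapped. In Combo2000 the order was Lgals9 (72.6), Cd47 (30.7), Cd274 (6.25), Icam1 (2.05), Vtcn1 (0.643), Icosl (0.223) and Cd80 (0.0657). Lgals9 and Cd47 were thus well above the rest of the members in both groups.

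**Figure D3:**
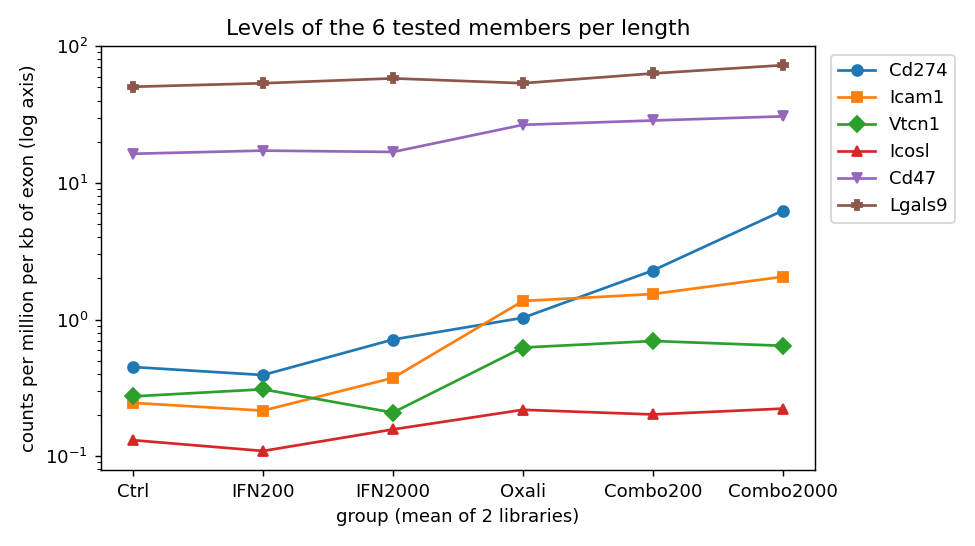
Mean level of the 6 tested members in each group, per kilobase of exon and on a log axis; each point is the mean of 2 libraries. Lgals9 and Cd47 stayed above the other 4 members in every group, and Cd274 moved from 0.449 in Ctrl to 6.25 in Combo2000.

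Against the share of all tested genes called higher, the members' counts were as follows. Against Ctrl, 0 of 6 members were called higher in IFN200 (0.114% of all tested genes), 1 in IFN2000 (8.39%), 4 with Oxali (34.8%), 5 for Combo200 (35.6%) and as many for Combo2000 (35.7%). The count of 0 came with 0 members at an unadjusted p under 0.05 and 0 under DESeq2. Oxali changed a large part of the transcriptome, with 67.6% of tested genes called in either direction, so 4 of 6 members called is near the background of change, while the 4 were all higher. Adding IFNγ to Oxali called 2 members higher at 200 pg (1.58% of all tested genes) and 4 at 2000 pg (3.37%), and the step from Combo200 to Combo2000 called 2 (1.21%). Adding Oxali to IFNγ called 6 at 200 pg (36.5%) and 5 at 2000 pg (38.5%), and IFN2000 over IFN200 called 1 (11.3%). The median log2 difference of the 6 members was 0.95 in Oxali against 0.02 over all tested genes. For Combo2000 over Oxali it was 0.32 against 0.00. The members and the gene lists below were chosen with earlier results of these data known. Their counts and medians beside those of all tested genes are therefore a description and no test.

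Whether IFNγ acted differently with Oxali present was tested as the difference of its log2 effects. Cd274 alone among the members passed, at 2000 pg: the IFNγ effect was 1.92 larger with Oxali (SE 0.300, edgeR adjusted p = 8.28e-04, 95% interval 1.29 to 2.55). The call held in 19 of 20 alternatives and was lost without Ctrl replicate 1 (1.72, adjusted p = 0.0611); it held without IFN2000 replicate 2. At 200 pg the difference for Cd274 was 1.34 (SE 0.322, edgeR adjusted p = 0.0628), which passed in 6 of 20 alternatives, DESeq2 among them (adjusted p = 0.0359). Members called higher were 0 at 200 pg (0.562% of all tested genes), with 2 at an unadjusted p under 0.05 and 1 under DESeq2, and 1 at 2000 pg (2.12%).

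For Icam1, which Oxali raised most, the interaction at 2000 pg was -0.03 (95% interval -0.68 to 0.61). For Lgals9 it was 0.23 (SE 0.0693, edgeR adjusted p = 0.0789) and for Cd47 0.16 (SE 0.0613, adjusted p = 0.175); Lgals9 passed at 0.32 without IFN2000 replicate 2 (adjusted p = 0.00473). On the CPM scale, with no test, the combination libraries were set against Ctrl plus the single mean differences. The share of all tested genes above this sum was not computed, so no count of members is given. For Cd274 the sum was 3.52 CPM at 200 pg, against 8.20 and 8.34 measured, and 4.68 CPM at 2000 pg, against 22.99 and 22.3. For Icosl both Combo2000 libraries (1.11 and 0.948 CPM) were below the sum of 1.13.

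**Figure D4:**
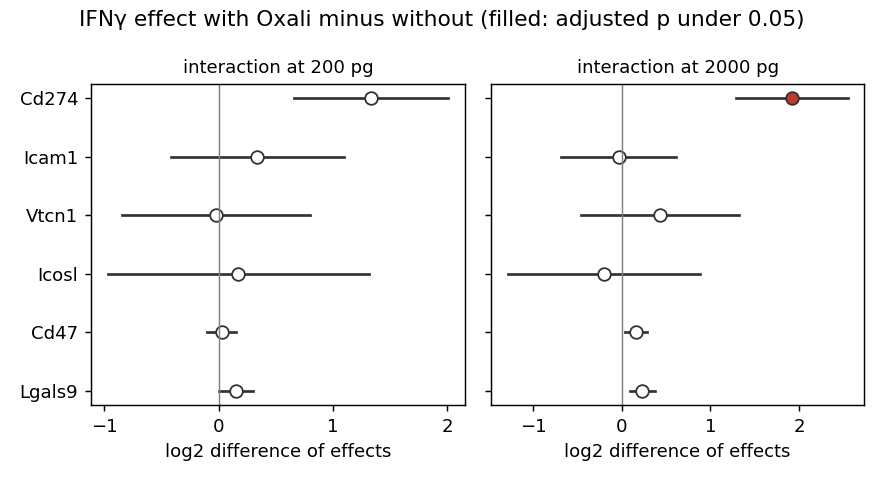
Difference of the log2 effect of IFNγ with and without Oxali for the 6 tested members at both IFNγ amounts, with 95% intervals. Cd274 lies furthest to the right at both amounts (1.34 and 1.92), and only its value at 2000 pg passed.

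**Figure D5:**
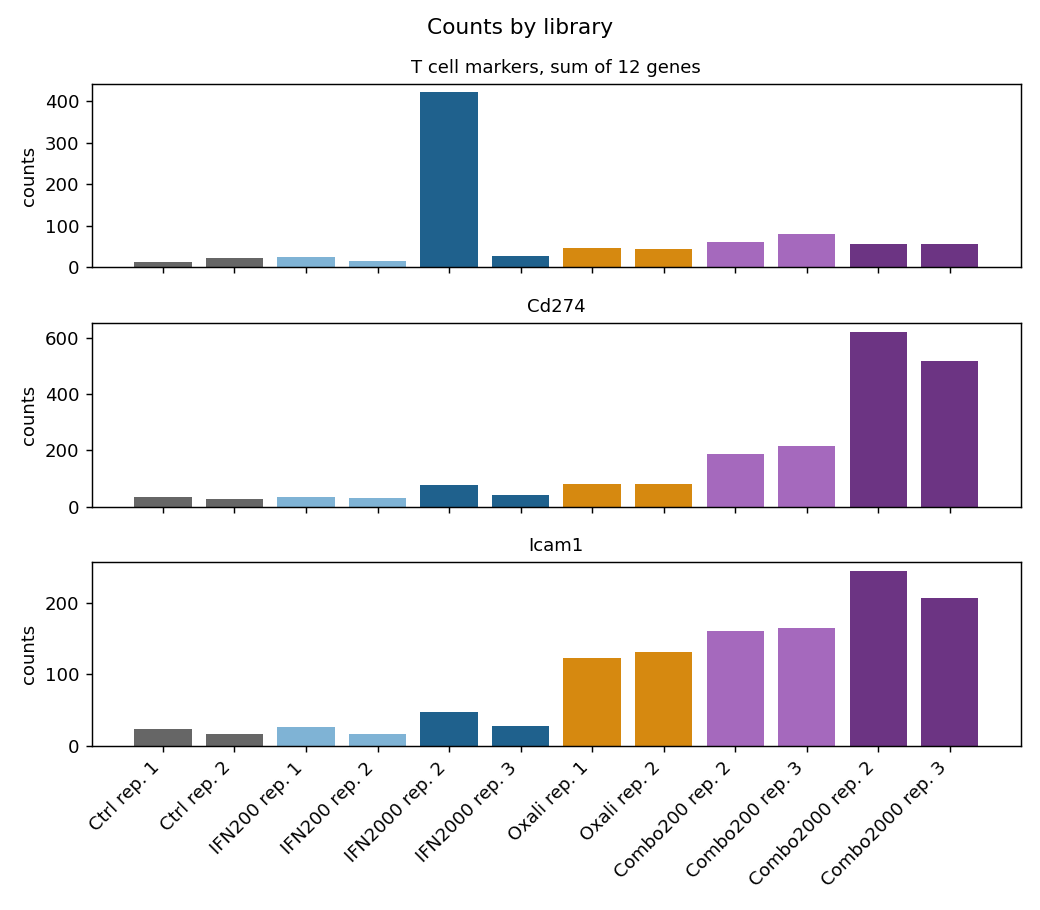
Counts by library of 12 T cell markers summed (top), Cd274 (middle) and Icam1 (bottom), coloured by group. IFN2000 replicate 2 holds 421 marker counts and is the higher IFN2000 library for both genes.

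Most genes of the route from IFNγ to Cd274 were higher with Oxali. The list of 19 genes held the receptor, kinases, transcription factors, inhibitors, PD-L1 regulators and, apart from these, Qpctl, and all were tested. Of the 19, 13 were called higher and 4 lower in Oxali, 6 and 2 in IFN2000, and 15 and 4 in Combo2000. Their medians were 0.62, 0.03 and 0.77, against 0.02, 0.00 and 0.02 over all tested genes, for a list chosen with earlier results known. Of all tested genes 67.6% were called in either direction in Oxali and 34.8% called higher, 16.9% and 8.39% in IFN2000, and 69.2% and 35.7% in Combo2000. Without IFN2000 replicate 2, 5 were higher and 0 lower in IFN2000. The IFNγ receptor chain Ifngr2 went from 24 and 18 counts (Ctrl) to 106 and 93 (Oxali), a rise of 2.06 (SE 0.230, edgeR adjusted p = 1.48e-07), and Ifngr1 rose by 0.74. Neither chain was called in IFN2000.

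Irf1, a transcription factor that IFNγ induces, rose by 1.33 with Oxali, by 1.32 with IFNγ at 2000 pg and by 3.54 with the combination at that amount. It passed the interaction test at 200 pg (1.17) and at 2000 pg (0.88). Socs1, the feedback inhibitor of JAK, rose by 0.98, 1.27 and 3.27, and its interaction missed the threshold (edgeR adjusted p = 0.0698 and 0.0774). The NF-κB subunits Relb and Nfkb2 rose by 3.00 and 1.98 in Oxali and were not called in IFN2000. Cmtm6, which protects PD-L1 protein from degradation, and its relative Cmtm4 fell by 0.45 and 0.30 in Oxali, and Socs3 fell by 0.41. In Combo2000, Cmtm4, Cmtm6 and Qpctl fell. The call of a small fall of Jak2 in IFN2000 (-0.12, edgeR adjusted p = 0.0283) was lost without replicate 2 at a like value (-0.12, adjusted p = 0.139), while Jak2 rose by 0.73 in Oxali.

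Of 26 further ligand genes 15 were tested, and 10 were called higher and 2 lower in Oxali, 3 and 0 in IFN2000 and 11 and 0 in Combo2000. The shares of all tested genes called higher were 34.8% in Oxali, 8.39% in IFN2000 and 35.7% in Combo2000. Called in either direction were 67.6%, 16.9% and 69.2%. Vcam1 and Btn1a1 passed the filter on low counts only through the libraries with Oxali. Their being higher there follows in part from the filter. For Oxali and Combo2000 the counts of this list, which include both genes, therefore cannot be weighed against all tested genes. Vcam1, an adhesion ligand, gave 4 and 1 counts for Ctrl, 82 and 88 for Oxali and 207 and 174 for Combo2000. Tnfrsf14 (HVEM, which binds BTLA) gave 1 and 2 counts for Ctrl, 19 and 22 for Oxali, 21 and 24 for IFN2000 and 122 and 67 for Combo2000. Both were called in Oxali, but their folds rest on 5 and 3 Ctrl counts. H2-T23, encoding Qa-1, a ligand of NKG2A, rose by 1.35 in Oxali and 2.97 in Combo2000. Lgals1, another galectin, rose by 0.23 in IFN2000.

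Pvr, the poliovirus receptor that binds TIGIT, rose by 0.37 in Oxali, and Nectin2 did not pass (-0.01). Tnfsf9, the 4-1BB ligand, fell by 0.76 in Oxali. Ido1, which depletes tryptophan, fell by 1.39 in Oxali and rose by 2.16 in IFN2000 and by 2.58 in Combo2000, and its interaction passed at both amounts (1.78 and 1.81). Btn1a1 rose by 1.84 in Oxali from 1 and 6 Ctrl counts.

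Of 9 counter-receptors, which immune cells rather than tumour cells are known to carry, 3 were tested, of which 2 were called higher in Oxali, 1 in IFN2000 and 3 in Combo2000, where 34.8%, 8.39% and 35.7% of all tested genes were. Their medians on the log2 scale were 2.43 in Oxali (the value of Havcr2), 1.54 in IFN2000 (that of Cd28) and 2.39 in Combo2000 (that of Havcr2). Over all tested genes the medians were 0.02, 0.00 and 0.02. Itgb2 and Cd28 passed the filter on low counts only through the libraries with Oxali, so their being higher there follows in part from the filter. For Oxali and Combo2000 the calls and medians of this list therefore cannot be weighed against all tested genes. Havcr2 (TIM-3, a receptor of galectin-9) went from 66 and 66 counts (Ctrl) to 374 and 430 (Oxali), a rise of 2.43 (SE 0.137, edgeR adjusted p = 6.31e-12). Itgb2 went from 3 and 1 counts (Ctrl) to 21 and 31 (Oxali). In IFN2000 Itgb2 had 30 and 3 counts and Cd28 had 41 and 2, the higher again in the library with T cell reads. Without that library the log2 differences of IFN2000 from Ctrl were -1.77 for Cd28, 0.25 for Havcr2 and 0.325 for Itgb2. Sirpa and Itgam were at 0 in every library.

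The 5 tested genes whose log2 CPM followed Cd274 most closely over the 12 libraries were Snx10 (Pearson r 0.987), Ube2l6 (0.985), Gbp9 (0.985), C1ra (0.984) and Ifi35 (0.983). All share the libraries, and the correlation is a description with no test. Mean CPM in Ctrl, Oxali and Combo2000 was 27.6, 40.1 and 80.8 for Snx10, and 17.9, 24.0 and 63.9 for Ube2l6, an enzyme of ISG15 conjugation. Gbp9, a guanylate-binding protein, went from 0.0253 to 10.5 CPM from Ctrl to Combo2000. Among the members themselves, Lgals9 (r 0.925) and Icam1 (0.902) followed Cd274 most closely, and Icosl (0.629) least.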

How the data were processed

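RNA of Myc-CaP cells was made into libraries with a stranded mRNA kit. The authors deposited raw gene counts, 1 table for all 12 libraries; the study's methods name STAR, GRCm38, GENCODE annotation and featureCounts, and the submitters' processing notes name STAR 2.7.3a and RSEM 1.3.0. Whether counting used strand is not stated. No column was of another sample.

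Counts were tested with edgeR 4.0.16 in R 4.3.3: TMM scaling, filterByExpr (minimum count 10, minimum total 15), 1 mean per group, glmQLFit and glmQLFTest, and Benjamini-Hochberg adjustment within each of 13 comparisons, 2 of them interactions. Log2 fold changes carry an SE of the change over the square root of F. With 2 libraries a group, an exact two-sided permutation test cannot go below p = 0.333. CPM are TMM-scaled, and correlations used log2 CPM with a prior count of 2. The method was tested on simulated data. Replicate numbers did not pair libraries (correlations of deviations -0.0456 to 0.0170).

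The members and gene lists were chosen with earlier results of these data known. All 10 members are named. From the lists, up to 3 called genes with the largest rise and fall in Oxali, IFN2000 and Combo2000 against Ctrl are named, with 13 further genes chosen for their role and the 5 genes most correlated with Cd274; some genes under these rules are not reported here. Alternatives were RLE and upper-quartile scaling, no filter, a mean of at least 50 counts, DESeq2 1.42.0, a replicate block, only the groups compared, a length and GC correction, and leaving out each library.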

Additional observations from a re-analysis of the deposited data

Results flagged for a closer look

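The effect of IFNγ at 2000 pg on Cd274 differed with Oxali present by the interaction test: the log2 difference of effects was 1.92 (SE 0.300, edgeR adjusted p = 8.28e-04), both Combo2000 libraries being higher than all others. Outlier tests do not apply to groups of 2.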

How the results depend on the processing

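Over 20 alternatives, 1465 of 1527 member values kept their side of the threshold without a called value reversing, 41 lost a call, 21 gained one and 0 calls reversed; 35 of the 1465 changed sign with neither value called. Members called in IFN2000 against Ctrl went from 1 to 2 with no filter, and in IFN2000 against IFN200 from 1 to 2 under RLE, upper-quartile scaling, no filter and a mean of at least 50 counts. Under the replicate block the count went from 2 to 1 for Combo200 against Oxali and for Combo2000 against Combo200, the latter also under DESeq2. At 200 pg the interaction count went from 0 to 1 with no filter, DESeq2, only the groups compared and the length and GC correction, and at 2000 pg from 1 to 2 with no filter and that correction. Leaving out 1 library gave 0 to 3 in IFN2000 against Ctrl and against IFN200, 1 to 2 in Combo200 against Oxali and in Combo2000 against Combo200, 2 to 4 in Combo2000 against Oxali, 0 to 1 for the interaction at 200 pg and 0 to 2 at 2000 pg. Without IFN2000 replicate 2, 0 members were called in IFN2000. The block changed no other member count by over 1.5 times, and the replicate numbers do not pair the samples; its all-gene counts were 1071 against 2221 in IFN2000 against Ctrl, 1588 against 2943 against IFN200, 142 against 241 in Combo200 against Oxali, 48 against 92 for the interaction at 200 pg and 331 against 574 in Combo2000 against Oxali. All-gene counts ranged from 4 to 102 (15 in the reported fit) for IFN200, 646 to 2964 (2221) for IFN2000, 1121 to 3478 (2943) for IFN2000 against IFN200, 123 to 372 (241) and 331 to 793 (574) for adding IFNγ to Oxali, 110 to 269 (181) for Combo2000 against Combo200, and 33 to 262 (92) and 102 to 1035 (359) for the interactions. The cause of these changes was not tested. A mean of at least 50 counts left out Icosl and Vtcn1, so it gave no value for them. Of the 4 members under the filter, Pdcd1lg2, Cd86 and Cd276 held too few counts for a change to be seen, and Cd80 was tested with no filter alone; groups of 2 limit every test.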
